A study of Homo sapiens with 12 samples.

Results

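The p53 target genes are genes with published binding of the tumour suppressor p53 near or within them, and 33 of them were followed here in 4 human cell lines of synovial sarcoma (SS), a sarcoma of soft tissue in which SS18 is fused to one of the SSX genes. Fuji, Yamato-SS, Aska-SS and SYO-1 cells were exposed for 24 h to 0 µM (no drug), 0.3 µM or 3 µM of ZSTK474, which inhibits the class I PI3K enzymes. Each of the 3 dose groups holds 1 array of each line, so there are 12 Affymetrix U133 Plus 2.0 arrays and the lines serve as the replicates. With 1 array per line at a dose, every p-value sets the mean change over the lines against a spread estimated from all 12 arrays. That spread is how far the lines differ in their response over the 3 doses, drawn toward that of genes of similar signal. It can be smaller than the spread of a gene's changes between the lines at 1 dose. The level of each line is removed in the fit. The members were a list of 33 gene symbols. Of these, 31 had a probe set annotated with exactly 1 gene symbol and 27 were bright enough to be tested, among 12132 genes tested in all. *BTG2* and *FDXR* were not analysed here. The brightest probe set stood for each gene, and a signal below is the deposited intensity after quantile normalization across the 12 arrays, on a linear scale. Because these are whole cultures, fewer expressing cells and less RNA per expressing cell cannot be told apart.

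p53 is a transcription factor that is held at a low level by the ubiquitin ligase MDM2 and its partner MDM4 and accumulates when DNA is damaged or other stresses arise. Its targets feed back on p53 itself, stop the cell cycle, repair DNA, change metabolism or prepare the cell for apoptosis. Several targets are also bound by other factors, among them the FOXO forkhead factors, which Akt keeps out of the nucleus when PI3K is active.

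The 12 arrays carried the markers of the labelled tumour. All 6 of the SS markers analysed passed the brightness filter, with *TLE1*, the marker used in pathology, at 7260 to 24076, and 4 of 4 mesenchymal markers passed as well. Of the leukocyte, endothelial and epithelial markers, 1 of 5, 1 of 3 and 1 of 4 passed, with no signal above 268 on any array. For the actin control the 3′ over 5′ ratio, on the log2 scale a measure of RNA integrity, was 0.22 to 0.23 at 3 µM in Aska-SS, SYO-1 and Yamato-SS and 0.73 in Fuji, against 0.04 to 0.21 at 0 µM in the 4 lines.

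Promoter windows were available for 26 members, 38 windows in all, from RefSeq (GRCh38.p14), each running from 250 bases before to 50 bases after a start site. *TP53INP1*, *TNFRSF10B*, *TNFRSF10C*, *PHLDA3*, *RRM2B*, *CMBL* and *GADD45A* had none. Both strands were searched for the p53 decamer, the motif of which p53 binds a pair, for the forkhead motif GTAAACA or TGTTTAC and for the E-box CACGTG. These motifs did not overlap one another in the windows printed. The decamer was found in 6 of 38 member windows (15.8%), in *FAS*, *FDXR*, *AEN*, *DDB2*, *PLK2* and *RPS27L*, and in 6.63% of all 35116 windows. A pair of decamers at most 13 bases apart, which makes a full site, was found in 10 of the 35116 windows (0.0285%), and *DDB2* held the only one among the members. The forkhead motif was found in 2 of 38 member windows (5.26%), in *BTG1* and *GDF15*, and in 3.42% of all windows. The E-box was found in 3 of 38 (7.89%), in *AEN* and *EDA2R*, and in 7.26% of all windows. The 2 windows of *EDA2R* overlap and hold the same E-box. Overlapping windows of a gene were counted separately in all these shares. The promoters of *BTG1*, *DDB2* and *AEN* are printed because these genes changed at 3 µM and each holds at least 1 of the motifs, which are in capitals. *BTG1* (chr12:92145797-92146096, minus strand) has the forkhead motif at position -209 from the start site. *DDB2* (chr11:47214724-47215023, plus strand) has decamers at positions 5 and 16, and *AEN* (chr15:88621090-88621389, plus strand) has a decamer at position -34 and the E-box at position 8. A match is a description of the letters and not evidence of binding.
BTG1: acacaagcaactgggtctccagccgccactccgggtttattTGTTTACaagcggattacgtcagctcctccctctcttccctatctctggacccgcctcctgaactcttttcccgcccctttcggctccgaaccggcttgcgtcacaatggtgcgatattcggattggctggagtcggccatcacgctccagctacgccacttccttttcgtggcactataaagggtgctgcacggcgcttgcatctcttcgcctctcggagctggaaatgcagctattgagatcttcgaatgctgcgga
DDB2: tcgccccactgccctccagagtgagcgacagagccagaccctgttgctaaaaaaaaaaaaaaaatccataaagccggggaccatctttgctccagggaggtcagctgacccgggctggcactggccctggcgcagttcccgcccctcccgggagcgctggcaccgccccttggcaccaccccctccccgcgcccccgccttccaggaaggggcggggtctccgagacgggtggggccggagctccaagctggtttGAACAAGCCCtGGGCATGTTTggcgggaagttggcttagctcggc
AEN: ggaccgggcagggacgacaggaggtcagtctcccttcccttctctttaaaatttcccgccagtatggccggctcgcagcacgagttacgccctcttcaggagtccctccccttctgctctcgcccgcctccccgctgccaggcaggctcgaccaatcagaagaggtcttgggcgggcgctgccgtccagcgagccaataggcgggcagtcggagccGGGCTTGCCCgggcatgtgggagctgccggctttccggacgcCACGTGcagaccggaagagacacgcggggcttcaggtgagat

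At 3 µM against 0 µM, 9 of the 27 members tested (33.3%) rose, against 22.6% of all genes tested, and 3 (11.1%) fell, against 21.1% of all genes (limma, cell line as block, Benjamini-Hochberg adjusted p under 0.05 over all 12132 genes). The difference between the members' shares and those of all genes was not tested. *BTG1*, *TP53INP1*, *CMBL*, *CCNG1*, *DDB2*, *XPC*, *PPM1D*, *MDM4* and *RRM2B* rose, and *TIGAR*, *AEN* and *GADD45A* fell. The same direction in 4 of 4 lines was seen in 8 members that were higher, against 25.5% of all genes, and in 3 that were lower, against 23.9%. The median log2 change was 0.18 over the 27 members and 0.01 over all genes. By role, 4 of 7 feedback regulators of p53 rose and 0 fell, 3 of 4 genes of DNA repair and nucleotide supply rose and 0 fell, and 0 of 8 genes of death receptors and apoptosis rose and 1 fell. Of the 5 genes of growth arrest 1 rose and 1 fell, and of the 3 genes of metabolism and mitochondria 1 rose and 1 fell.

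**Figure D1:**
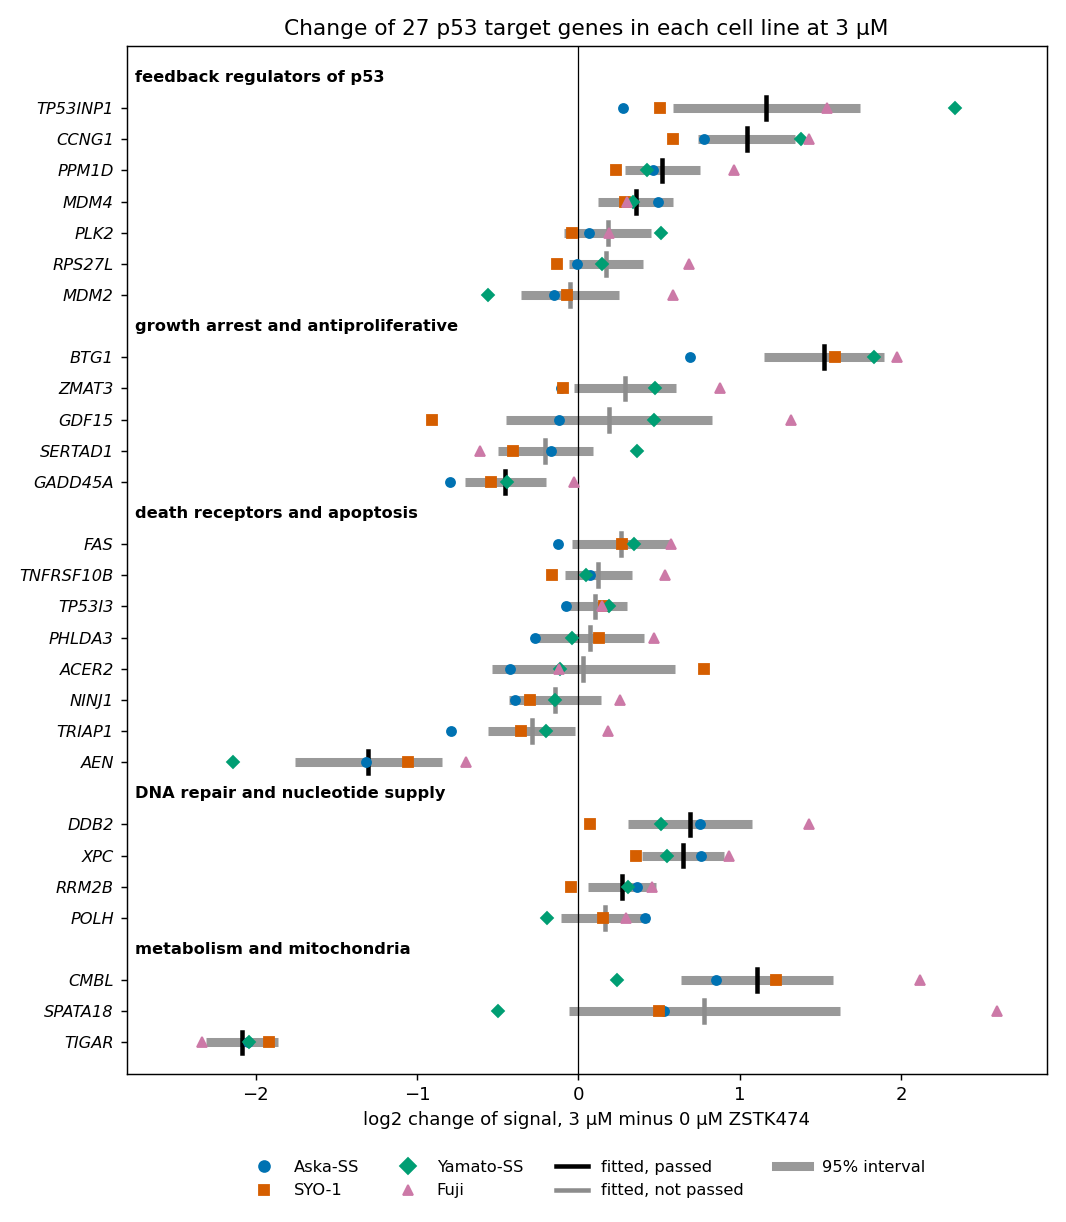
Each point is the log2 change of signal at 3 µM minus 0 µM ZSTK474 of 1 gene in 1 cell line, with 27 members grouped by role. Vertical ticks are the fitted changes over the 4 lines (black where the gene passed) and grey bars are 95% intervals of the fit. The 4 points of *TIGAR* lie between -2.33 and -1.92, while those of *SPATA18* run from -0.50 to 2.59.

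Among the feedback regulators, *CCNG1* encodes cyclin G1, which recruits a phosphatase to MDM2. *CCNG1* signals in order of dose (0, 0.3 and 3 µM) were 7748, 15362 and 20849 in Fuji, 3698, 4848 and 9632 in Yamato-SS, 11042, 14556 and 18969 in Aska-SS and 10958, 12094 and 16463 in SYO-1. All 4 lines were higher at 3 µM than at 0 µM, and Yamato-SS was the lowest line at every dose. The fitted log2 change was 1.04 (standard error 0.14, limma adjusted p = 0.000117, n = 4 lines), a fold of 2.06. *TP53INP1*, a nuclear protein that promotes phosphorylation of p53 and autophagy, differed more between lines. Across 0, 0.3 and 3 µM, *TP53INP1* had signals of 1101, 2473 and 3201 in Fuji, 276, 838 and 1394 in Yamato-SS, 2405, 2384 and 2910.2 in Aska-SS and 2232, 2677 and 3166 in SYO-1. The 3 lines other than Yamato-SS had similar signals at 3 µM, and Yamato-SS stayed below them although its own change was the largest, at 2.34 against 0.27 in Aska-SS on the log2 scale. The fitted change was 1.16 (standard error 0.27, limma adjusted p = 0.00387), and without Yamato-SS it was 0.77 (adjusted p = 0.0172).

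*PPM1D* encodes WIP1, the phosphatase that removes activating phosphates from p53 and ATM. The signals of *PPM1D* at 0, 0.3 and 3 µM were 2713, 3564 and 5285 in Fuji, 1872, 2195 and 2512 in Yamato-SS, 3130.3, 3562 and 4309 in Aska-SS and 1905, 2283 and 2242 in SYO-1. It was higher at 3 µM in every line, most in Fuji, and the ranges of the 2 doses overlapped between lines. Over the 4 lines the log2 change was 0.52 (standard error 0.11, limma adjusted p = 0.00211). *MDM4*, the partner of MDM2 that masks the activation domain of p53, rose by less. *MDM4* signals in order of dose (0, 0.3 and 3 µM) were 2176, 3049.9 and 2675 in Fuji, 2346, 2189 and 2968 in Yamato-SS, 1516, 2039.9 and 2134 in Aska-SS and 1677, 1905 and 2049.8 in SYO-1. Yamato-SS and Fuji were above the other lines at 3 µM, and the changes of single lines lay between 0.29 and 0.49. On the log2 scale the change was 0.36 (standard error 0.11, limma adjusted p = 0.0174), and it no longer passed without Aska-SS (0.31, adjusted p = 0.0939) or without SYO-1 (0.38, adjusted p = 0.0549).

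*MDM2*, the ubiquitin ligase that directs p53 to degradation and is one of its best known targets, did not pass. Across 0, 0.3 and 3 µM, *MDM2* had signals of 2071, 2389 and 3106 in Fuji, 2379, 2022 and 1613 in Yamato-SS, 3338, 3030.0 and 2999.8 in Aska-SS and 2423, 2228 and 2303 in SYO-1. The highest untreated line was Aska-SS and the highest line at 3 µM was Fuji. Its log2 change was -0.05 (95% interval -0.36 to 0.25, limma adjusted p = 0.797), with -0.56 in Yamato-SS and 0.58 in Fuji. Of the other regulators, *PLK2*, a polo-like kinase of the stress response, and *RPS27L*, a ribosomal protein that binds MDM2, had log2 changes of 0.18 and 0.17 and did not pass. *PLK3*, another polo-like kinase, lay below the filter with signals of 16.9 to 99.7.

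**Figure D2:**
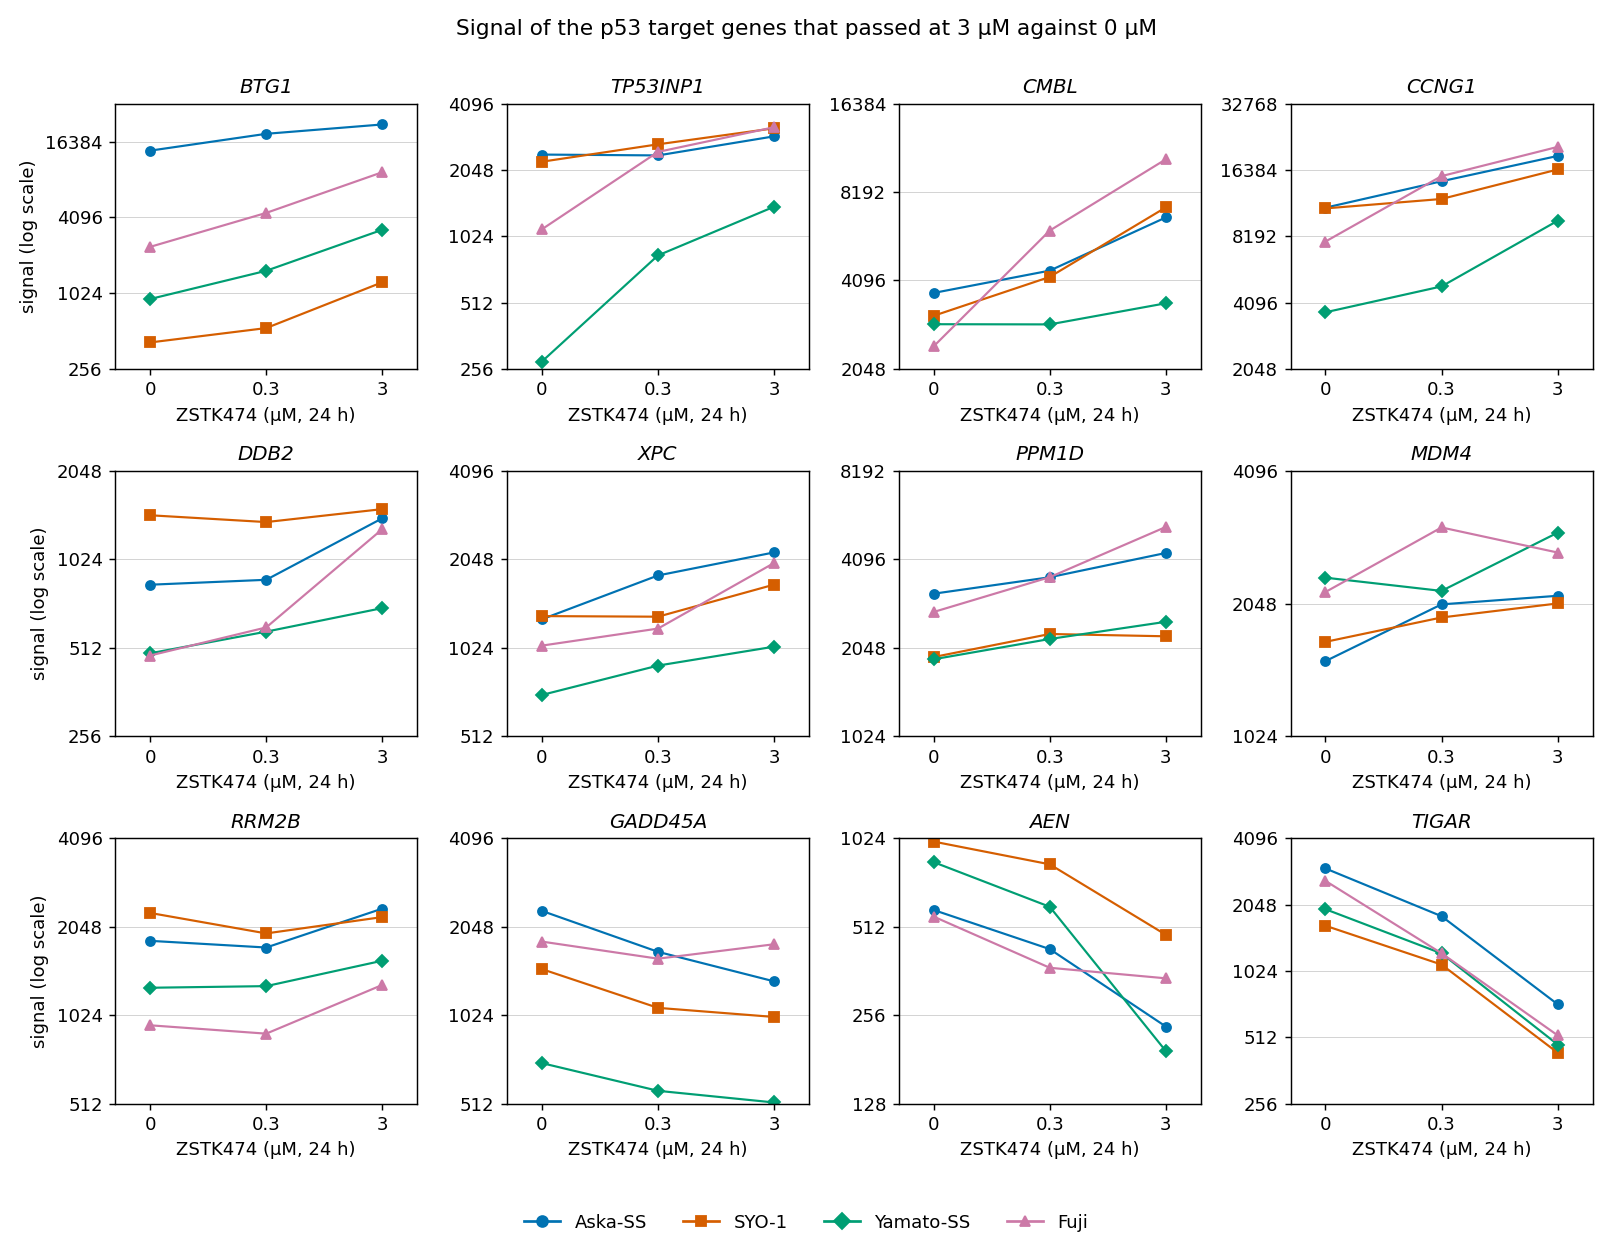
Signal on a log scale against the dose of ZSTK474 for the 12 members that passed at 3 µM against 0 µM, with 1 point per array and 1 line per cell line. *TIGAR* falls in parallel in the 4 lines, and *BTG1* rises in each of them from levels that differ 33.4-fold without drug.

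Of the genes of growth arrest, *BTG1*, an antiproliferative protein that recruits the deadenylase machinery to mRNA, had the largest rise of all members. The signals of *BTG1* at 0, 0.3 and 3 µM were 2384, 4440.5 and 9350.2 in Fuji, 918, 1539.9 and 3262 in Yamato-SS, 13866, 18873 and 22394 in Aska-SS and 415, 539.8 and 1248 in SYO-1. The 4 lines kept their order at every dose, with Aska-SS far above the others and SYO-1 lowest. Its fitted change on the log2 scale was 1.52 (standard error 0.17, limma adjusted p = 4.31e-05), a fold of 2.87, with 0.69 in Aska-SS and 1.59 to 1.97 in the other lines. The promoter printed above holds the forkhead motif, which *GDF15*, a member that did not pass, also has. *GADD45A*, which inhibits the CDK1 kinase after DNA damage, moved the other way. *GADD45A* signals in order of dose (0, 0.3 and 3 µM) were 1824, 1595 and 1786 in Fuji, 703, 566 and 517 in Yamato-SS, 2321, 1683 and 1335 in Aska-SS and 1470.0, 1085 and 1010.0 in SYO-1. It was lower at 3 µM in all 4 lines, but in Fuji by only 0.03 on the log2 scale. The log2 change was -0.45 (standard error 0.12, limma adjusted p = 0.00733), and without Aska-SS it was -0.34 and did not pass (adjusted p = 0.0699).

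*GDF15*, a secreted cytokine of the stress response, had changes of both signs. Across 0, 0.3 and 3 µM, *GDF15* had signals of 125, 143 and 311 in Fuji, 134, 199.7 and 185 in Yamato-SS, 1041, 704 and 959 in Aska-SS and 243, 159 and 129 in SYO-1. Aska-SS was far above the other lines at every dose, SYO-1 was lower with drug and Fuji was higher at 3 µM. The fitted log2 change was 0.19 (95% interval -0.45 to 0.83, limma adjusted p = 0.637), with -0.91 in SYO-1 and 1.32 in Fuji. *ZMAT3*, a zinc finger protein that binds RNA, had a log2 change of 0.29 with -0.11 in Aska-SS and 0.88 in Fuji, and *SERTAD1*, a regulator of CDK4, had one of -0.20. Neither passed.

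None of the death receptors passed. *FAS*, the receptor of FAS ligand, had a log2 change of 0.26 (95% interval -0.04 to 0.57, limma adjusted p = 0.143) and *TNFRSF10B*, which encodes the TRAIL receptor DR5, one of 0.12 (95% interval -0.08 to 0.33, adjusted p = 0.323). Both had their largest change in Fuji, at 0.58 and 0.54. *TNFRSF10C*, a decoy receptor of TRAIL, and *EDA2R*, a receptor of ectodysplasin, lay below the filter, with signals of 12.1 to 61.0 and 12.1 to 120. *TP53I11*, whose protein has been linked to apoptosis, also lay below it, at 12.3 to 110.

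*AEN*, an exonuclease that degrades DNA and RNA during apoptosis, was the only member of its role that fell. The signals of *AEN* at 0, 0.3 and 3 µM were 555, 371 and 342 in Fuji, 850.2, 599 and 193 in Yamato-SS, 584, 429.9 and 234 in Aska-SS and 999, 836 and 481 in SYO-1. It was lower with drug in every line at both doses, and the largest drop was in Yamato-SS, which had the second highest untreated signal and the lowest at 3 µM. Over the 4 lines the log2 change was -1.30 (standard error 0.21, limma adjusted p = 0.00041), a fold of 0.405. *TRIAP1*, a mitochondrial protein that limits apoptosis, had a log2 change of -0.29 and missed the threshold (unadjusted p = 0.0378, adjusted p = 0.0778), with -0.79 in Aska-SS and 0.18 in Fuji. *TP53I3*, a quinone oxidoreductase, *PHLDA3*, which competes with Akt for membrane lipid, *NINJ1*, which ruptures the plasma membrane of dying cells, and *ACER2*, a ceramidase, had log2 changes of -0.14 to 0.10 and did not pass.

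The genes of DNA repair and nucleotide supply held 3 that rose. *XPC*, which detects distorted DNA in nucleotide excision repair, was higher in each line. *XPC* signals in order of dose (0, 0.3 and 3 µM) were 1042, 1191 and 1992 in Fuji, 708, 891 and 1033 in Yamato-SS, 1281, 1806 and 2164 in Aska-SS and 1313, 1307 and 1681 in SYO-1. Yamato-SS was lowest at every dose, and its signal at 3 µM did not reach the untreated signal of the other lines. On the log2 scale the change was 0.65 (standard error 0.12, limma adjusted p = 0.000845). *DDB2*, which recognizes ultraviolet damage ahead of XPC, was nearly level in SYO-1. Across 0, 0.3 and 3 µM, *DDB2* had signals of 482, 601 and 1299 in Fuji, 491, 581 and 699 in Yamato-SS, 839.8, 873 and 1414 in Aska-SS and 1448, 1373 and 1519 in SYO-1. Fuji and Aska-SS came close to SYO-1 at 3 µM, from untreated signals below it. Its fitted change on the log2 scale was 0.69 (standard error 0.18, limma adjusted p = 0.00724), with 0.07 in SYO-1 and 1.43 in Fuji, and without Fuji it was 0.44 (adjusted p = 0.0331). Its second promoter window is the one with the full p53 site. Of the other members with the p53 decamer, *AEN* fell, *FAS*, *PLK2* and *RPS27L* did not pass and *FDXR* was not analysed.

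*RRM2B*, the ribonucleotide reductase subunit that supplies nucleotides outside S phase, had the smallest change that passed. The signals of *RRM2B* at 0, 0.3 and 3 µM were 946, 886 and 1298 in Fuji, 1269.9, 1286 and 1569.9 in Yamato-SS, 1835, 1741 and 2362 in Aska-SS and 2283, 1944 and 2211 in SYO-1. SYO-1 was slightly lower with 3 µM than without drug, and the other 3 lines were higher. The log2 change was 0.27 (standard error 0.10, limma adjusted p = 0.0409), and it did not pass without Aska-SS (adjusted p = 0.167), without Yamato-SS (0.114) or without Fuji (0.149). *POLH*, the polymerase that copies past ultraviolet damage, had a log2 change of 0.17 and did not pass.

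*TIGAR*, a fructose bisphosphatase that lowers glycolytic flux and feeds the pentose phosphate pathway, had the largest change of all members and the smallest adjusted p. *TIGAR* signals in order of dose (0, 0.3 and 3 µM) were 2628, 1233 and 522 in Fuji, 1954, 1231 and 475 in Yamato-SS, 2993, 1816 and 723 in Aska-SS and 1644, 1095 and 436 in SYO-1. Every line fell at each step of dose, and no signal at 3 µM reached the lowest untreated signal. The fitted log2 change was -2.08 (standard error 0.10, limma adjusted p = 1.54e-06), a fold of 0.236, with -2.33 to -1.92 in single lines. None of the motifs searched was in its promoter window. *CMBL*, a hydrolase of the liver and gut that is counted among the p53 targets, rose. Across 0, 0.3 and 3 µM, *CMBL* had signals of 2443, 6057 and 10592 in Fuji, 2906, 2902 and 3425 in Yamato-SS, 3713, 4424 and 6715 in Aska-SS and 3104, 4211 and 7266 in SYO-1. Fuji had the lowest untreated signal and the highest at 3 µM, and Yamato-SS changed least. Over the 4 lines the log2 change was 1.11 (standard error 0.22, limma adjusted p = 0.00147), with 0.24 in Yamato-SS and 2.12 in Fuji.

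*SPATA18*, which takes part in the removal of damaged mitochondria, had the widest spread of changes between lines. The signals of *SPATA18* at 0, 0.3 and 3 µM were 72.1, 187 and 435 in Fuji, 97.0, 130.3 and 68.6 in Yamato-SS, 74.9, 75.2 and 108 in Aska-SS and 459.9, 466 and 649 in SYO-1. SYO-1 was the highest line at every dose, Fuji was above the other 2 lines at 0.3 µM and 3 µM, and Yamato-SS was lower at 3 µM than at 0 µM. On the log2 scale the change was 0.78 (95% interval -0.06 to 1.62, limma adjusted p = 0.122), with -0.50 in Yamato-SS and 2.59 in Fuji.

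The size of the members' changes at 3 µM is given here line by line. In Fuji, 8 of 27 members moved by at least 1 on the log2 scale, against 19.4% of all genes in that line, and 7 of these were higher. In Yamato-SS 5 did, against 11.2% of all genes, in SYO-1 4, against 7.77%, and in Aska-SS 2, against 11% (*AEN* and *TIGAR*, both lower). There is 1 array per line and dose, so these counts have no replicate check. The median log2 change of the members was 0.54 in Fuji, 0.24 in Yamato-SS, 0.07 in SYO-1 and -0.01 in Aska-SS, and that of all genes was -0.01 to 0.03. The array of Fuji at 3 µM is the one with the highest 3′ to 5′ ratio of actin, given above, and its part in these values was not tested. Without Fuji, 8 of 27 members rose, against 18.4% of all genes, and 4 fell, against 17.5%.

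At 0.3 µM against 0 µM, 1 of 27 members rose, *BTG1*, against 4.57% of all genes, and 1 fell, *TIGAR*, against 3.35%. The log2 change of *BTG1* was 0.62 (standard error 0.17, limma adjusted p = 0.0481), and it did not pass when any 1 of the 4 lines was left out. That of *TIGAR* was -0.77 (standard error 0.10, adjusted p = 0.00677), and it was not called without Aska-SS, where 0 members passed. In that fit 1 of all 12132 genes rose and 0 fell. With any other line left out, 0.462% to 1.76% of all genes rose and 0.206% to 1.15% fell. At an unadjusted p under 0.05, 7 of 27 members were higher, against 13.7% of all genes, and 2 were lower, against 12.7%. Direction was shared by 4 of 4 lines in 6 members that were higher, against 19.9% of all genes, and in 4 that were lower, against 19.3%. At 3 µM against 0.3 µM, *CCNG1*, *BTG1*, *RRM2B* and *XPC* rose (4 of 27, against 7.25% of all genes) and *TIGAR* and *AEN* fell (2 of 27, against 8.09%), with log2 changes of 0.56, 0.90, 0.37, 0.40, -1.32 and -0.86. Leaving out 1 line left 0 to 3 members higher and 1 or 2 lower in that comparison. In those fits 2.03% to 5.45% of all genes rose and 2.86% to 6.51% fell. The count of members that rose was 0 without SYO-1 (2.03% of all genes). It was 1 without Aska-SS (2.6%) or Yamato-SS (3.9%). The 3 comparisons share arrays.

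Levels of the members also differed between the untreated lines, for which there is 1 array each and no test. The highest and the lowest line differed by at least 1 on the log2 scale in 14 of 27 members (51.9%), against 48.1% of all genes, and the median range was 1.27 for the members and 0.97 for all genes. Aska-SS was the highest line for 15 members (55.6%) and for 26.9% of all genes, and SYO-1 for 9 members and 23.9% of all genes. Yamato-SS was the lowest line for 14 members (51.9%) and for 31.2% of all genes. In 24 of 27 members the range between untreated lines was larger than the fitted change at 3 µM, and the exceptions were *TIGAR*, *AEN* and *CMBL*. The same held for 85.9% of all genes.

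The widest range was that of *BTG1*, 33.4-fold between Aska-SS and SYO-1. *PLK2* followed, with 30.4-fold. *PLK2* signals in order of dose (0, 0.3 and 3 µM) were 78.9, 79.6 and 89.8 in Fuji, 1736, 1993 and 2477 in Yamato-SS, 2397, 2071 and 2510.0 in Aska-SS and 226, 244 and 221 in SYO-1. Aska-SS and Yamato-SS had the gene at a high level and SYO-1 and Fuji at a low one, and the order of the lines was the same at each dose. *TP53INP1*, *GDF15* and *SPATA18* came next with ranges of 8.71-fold, 8.34-fold and 6.38-fold. The same line was highest at all 3 doses in 14 of 27 members (51.9%), against 55.3% of all genes. *TP53I3* had one order of the lines at all 3 doses, with 2261 in Aska-SS, 1233 in SYO-1, 1064 in Fuji and 384 in Yamato-SS at 0 µM and a change at 3 µM of at most 0.19 in any line.

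**Figure D3:**
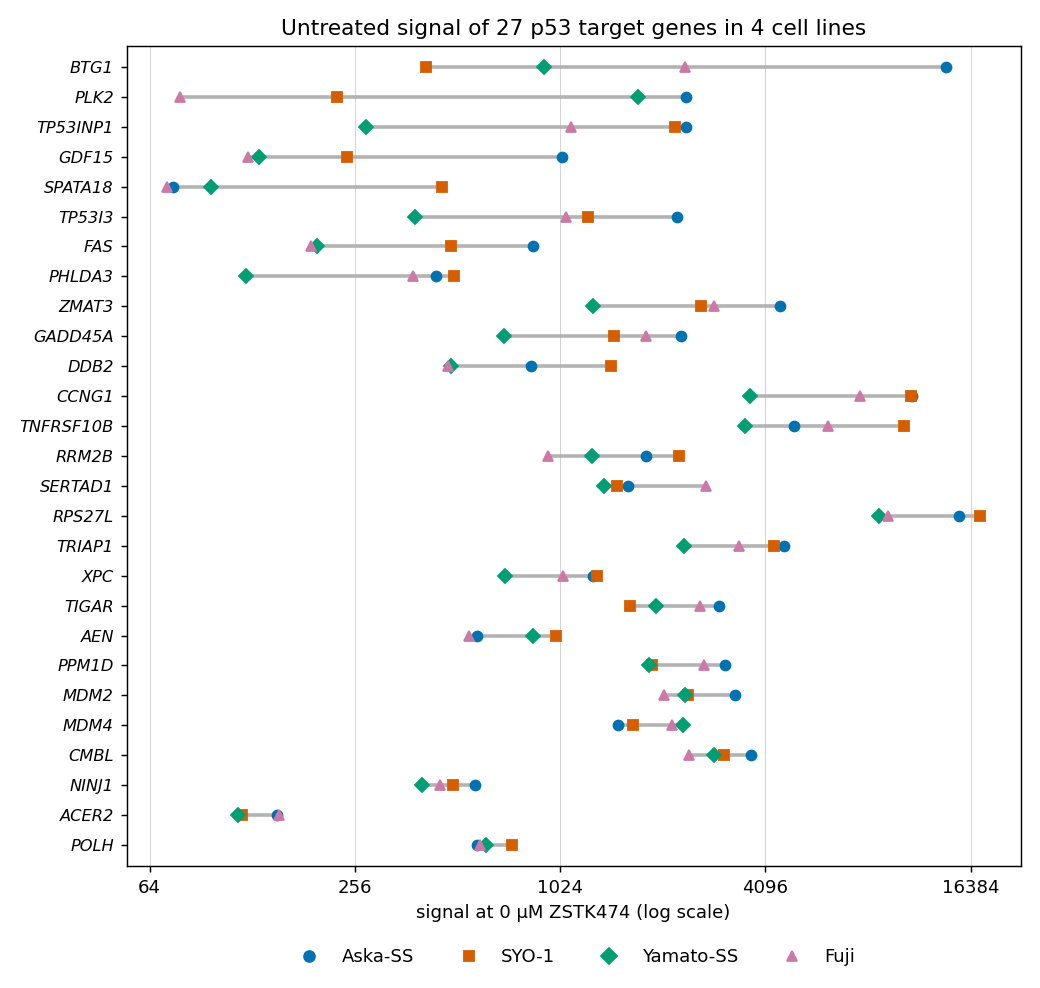
Signal on a log scale at 0 µM ZSTK474 in each of the 4 cell lines for 27 members, ordered by the range between lines, which the grey bars show. *BTG1* and *PLK2* have the widest ranges, and Yamato-SS or Fuji is at the left end in most of the rows.

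Several members have more than 1 probe set on the array, which cover different stretches of the transcript. Besides the brightest, 31 further probe sets of 11 members passed the filter, and 18 of them changed in the same direction as the brightest. The second probe sets of *BTG1* and *CMBL* also rose, with log2 changes of 1.27 (limma adjusted p = 8.76e-05 over 27306 probe sets) and 0.61 (0.00235). That of *PPM1D*, at a mean signal of 187, had a log2 change of 0.41 and did not pass (adjusted p = 0.17). For *MDM4*, 5 further probe sets did not pass, with log2 changes of -0.34 to 0.32. Of these, 1 was nearly as bright as the one used (mean signal 2128 against 2183) and changed by 0.12 (limma adjusted p = 0.325). For *MDM2*, 1 of 6 further probe sets rose by 1.28 (adjusted p = 0.00214) at a mean signal of 85.8, near the filter, and the other 5 did not pass, with -0.27 to 0.57. For *TNFRSF10B*, 1 of 2 further probe sets fell by 0.37 (adjusted p = 0.0268), against 0.12 for the brightest, which did not pass. The brightest probe sets of *MDM4* and *GDF15* are of the class that the array's design marks as sharing probes with other sequences. So are some further probe sets, among them the second of *CMBL* and the one of *TNFRSF10B* that fell. The transcripts that each probe set detects were not examined here.

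**Figure D4:**
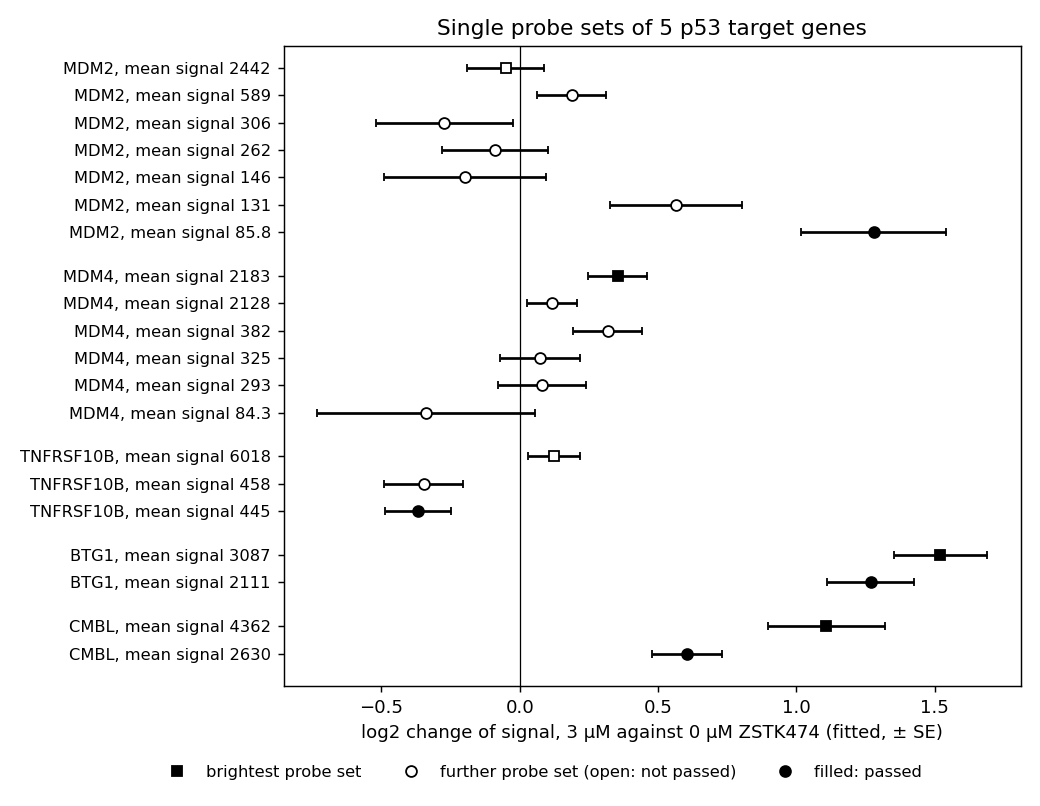
Fitted log2 change at 3 µM against 0 µM ZSTK474 with its standard error for single probe sets of 5 members, labelled by their mean signal over the 12 arrays. Squares are the brightest probe sets and filled symbols passed. In *MDM2* only the dimmest probe set of the 7 passed, at 1.28.

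Other genes of the pathway were followed in 2 lists. Of 33 regulators of p53 tested, 9 rose (27.3%, against 22.6% of all genes) and 7 fell (21.2%, against 21.1%) at 3 µM, with a median log2 change of -0.0015. *CREBBP* and *EP300*, acetyltransferases that act as coactivators of p53, rose by 0.90 (standard error 0.08, limma adjusted p = 1.34e-05) and 0.73 (0.13, adjusted p = 0.000945). *SIRT1*, a deacetylase, rose by 0.75 and *UBE4B*, a ubiquitin ligase that works with MDM2, by 0.73. *TP53RK*, a kinase of p53, and *MTA2*, a subunit of a deacetylase complex, both fell in 4 of 4 lines (adjusted p = 0.000136 and 0.000459). Of the DNA damage kinases *ATM* rose, while *ATR*, *CHEK1*, *CHEK2* and *PRKDC* fell.

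Of 42 other p53 targets tested, 5 rose (11.9%, against 22.6% of all genes) and 12 fell (28.6%, against 21.1%), with a median log2 change of -0.12. *PMAIP1*, which encodes the BH3-only protein NOXA, fell by 1.82 (log2 scale, standard error 0.21, limma adjusted p = 4.4e-05) and was lower in 4 of 4 lines. *PCNA*, the sliding clamp of replication, had a log2 change of -0.98 (standard error 0.08, adjusted p = 7.7e-06). *GPX1*, a glutathione peroxidase, and *DUSP14*, a phosphatase of MAP kinases, had log2 changes of -0.32 and -0.50, and *SIAH1*, a ubiquitin ligase, rose by 0.37. *CDKN1A*, which encodes the cell cycle inhibitor p21 and is a standard readout of p53, did not pass. Across 0, 0.3 and 3 µM, *CDKN1A* had signals of 1766, 1623 and 2713 in Fuji, 320.4, 152 and 158 in Yamato-SS, 3348, 2333 and 2181 in Aska-SS and 1924, 1520.2 and 1454 in SYO-1. It was lower at 3 µM than at 0 µM in 3 lines and higher in Fuji, and Yamato-SS had a far lower signal than the others at every dose. Its log2 change was -0.36 (standard error 0.20, limma adjusted p = 0.177). The count of other targets that rose was 1 of 42 without Aska-SS, against 18.5% of all genes, and 3 of 42 without Fuji, against 18.4%.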

How the data were processed

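RNA of 4 synovial sarcoma cell lines at 3 doses of ZSTK474 was measured on 12 arrays. The authors deposited MAS5 signal intensities (linear scale, version not given in the sources used here) with a 2% trimmed mean of 500.1 on each array. Quantile normalization, named in the study's methods, was applied here to the deposited intensities. Signals under the 20th percentile (12.1) were raised to it before taking log2, and probe sets with a mean above the median of all (65.1) were kept. Of 54675 probe sets, 41097 carry 1 gene symbol. Symbols come from the platform's annotation table, and 0 were updated through gene IDs. The brightest such probe set stood for each gene. The number of arrays limits the precision.

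Dose and cell line (as a block) were fitted over the 12 arrays with limma 3.58.1 in R 4.3.3, with a mean-dependent prior variance and Benjamini-Hochberg adjustment. The replicate numbers are the cell lines, which pair the arrays. After removing dose means, correlations (r) were 0.828 to 0.931 for pairs of the same line and -0.43 to -0.0892 for pairs differing in line and dose. The members, roles, pathway lists and alternatives were chosen with earlier results of these data known. Signals on all 12 arrays are given for members that passed with a change of at least 0.5 or were among the 10 smallest adjusted p, for *MDM2*, *MDM4* and *PPM1D*, for *PLK2* as one of the 5 widest untreated ranges, and for *RRM2B*, *GDF15* and *SPATA18*, which were added after their values were seen. Of each pathway list the 5 smallest adjusted p, *CDKN1A*, and *EP300* and the damage kinases, the last added after their values were seen, are named. The promoters printed were chosen after their motifs were seen, from the RefSeq windows of GRCh38.p14. Alternatives changed the scaling (no quantile normalization), low values (log2 of the signal plus 16, or the floor at the 40th percentile), the filter (none, or the 65th percentile), the choice of probe set (mean of all that passed) and the fit (no block, 2 doses alone, no variance trend, array weights, each line left out).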

Additional observations from a re-analysis of the deposited data

Results flagged for a closer look

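In 108 sets of 4 values (27 members, their signals at each dose and their changes at 3 µM), 5 values stood apart from the other 3 by Dixon's criterion, where chance sets 1 in 20 apart. Yamato-SS had a *TP53INP1* signal of 838 at 0.3 µM and 1394 at 3 µM, below the other lines (2384 to 2677 and 2910 to 3201). Its *RPS27L* signal at 3 µM was 9762, against 15040 to 15918 in the other lines. SYO-1 had a *SPATA18* signal of 460 at 0 µM, above the 72.1 to 97.0 of the other lines. The log2 change of *TP53I3* at 3 µM was -0.079 in Aska-SS and 0.15 to 0.19 in the others.

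In 3 members the change at 3 µM against 0 µM was at least 0.5 on the log2 scale in opposite directions in 2 lines. Fuji and Yamato-SS differed by 1.15 in *MDM2* (0.58 and -0.56) and by 3.09 in *SPATA18* (2.59 and -0.50), and Fuji and SYO-1 by 2.22 in *GDF15* (1.32 and -0.91). With 1 array per line and dose these differences were not tested.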

How the results depend on the processing

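The 13 members followed (the 12 that passed and *MDM2*) gave 182 values over 14 alternatives, of which 158 kept direction and side of the threshold, 22 kept direction and no longer passed, and 2 reversed. The 2 are *MDM2*, at 0.20 with the mean of its probe sets and at 0.12 without Yamato-SS (-0.26 to 0.12 over the lines left out). With the mean of its probe sets *MDM4* was at 0.10 (adjusted p = 0.469). Without the replicate block, which ignores the pairing by cell line, 11 of the 12 no longer passed. In that fit 0 members rose and 1 fell at 3 µM against 0 µM, against 1.43% and 1.72% of all genes (2157 genes at an unadjusted limma p under 0.05). There 1 regulator of p53 rose and 1 fell, and 0 of the other targets rose or fell. In both other comparisons 0 of all 12132 genes passed in that fit, so 0 members did. At an unadjusted limma p under 0.05 there were 319 genes at 0.3 µM against 0 µM and 620 at 3 µM against 0.3 µM. Leaving out each line left 7 to 9 members higher and 2 to 4 lower at 3 µM, 6 to 9 regulators higher and 5 to 7 lower, and 1 to 4 other targets higher and 8 to 14 lower. In these fits 18.4% to 20.8% of all genes rose and 16.6% to 19.5% fell. With the arrays of 0 and 3 µM alone 3 of 42 other targets rose, against 17.4% of all genes.

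At 0.3 µM against 0 µM the count of members that rose (1) was 2 without quantile normalization, with log2 of the signal plus 16, with the filter at the 65th percentile and with array weights, 3 with the arrays of the 2 doses alone, and 0 with no filter, with the mean of probe sets, without a variance trend and without each line (0 to 0). The count that fell (1) was 3 with the 2 doses alone, 2 with array weights and 0 to 1 over the lines left out. Of all genes, 0.293% rose with no filter, 2.68% with the mean of probe sets and 0.849% without a variance trend. The share was 5.8% without quantile normalization, 4.74% with log2 of the signal plus 16 and 6.66% with the filter at the 65th percentile. With array weights 8.74% of all genes rose and 7.88% fell, and with the 2 doses alone 5.94% rose and 5.36% fell. Over the lines left out 0.00824% to 1.76% of all genes rose and 0% to 1.15% fell in that comparison. At 3 µM against 0.3 µM the count that rose (4) was 2 with no filter, 7 with the 2 doses alone, 1 without a variance trend and 0 to 3 over the lines left out, and the count that fell (2) was 1 with no filter and 1 to 2 over the lines left out. Of all genes, 2.56% rose and 2.82% fell with no filter, 9.95% rose with the 2 doses alone and 4.29% without a variance trend. Over the lines left out 2.03% to 5.45% rose and 2.86% to 6.51% fell. The cause of these shifts was not tested. The count of members with a wide untreated range (14 of 27) was 13 of 25 with the filter at the 65th percentile and 18 of 31 with no filter. It was 14 to 16 of 27 with the other scaling, low values and choice of probe set. The share of all genes was not computed in these settings. The signals of *PLK2* in Fuji (78.9 to 89.8) lay near the filter of 65.1.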
